A study of Homo sapiens with 2 samples.

Results

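The genes described here are TP63 and TP73, the relatives of the tumour suppressor p53, and the regulators around them. MDM2 and MDM4 are inhibitors of p53, CDKN1A is its best known transcriptional target, and CDKN2A and CDKN2B encode further brakes on the cell cycle. The regions are accessible stretches of DNA from an ATAC-seq peak list of H1 cells, an established human embryonic stem cell line that had been stored frozen. Thawed cells were cleaned with DNase I and on Ficoll before the assay. In ATAC-seq a transposase cuts open chromatin and adds sequencing adapters there. There was 1 group, with no treatment or genotype contrast, and the map was made, per the series, to train a model that predicts accessibility from sequence. The group held 2 samples, not said to be separate cultures, that share 1 deposited list, so no value has a replicate spread. A region was taken where its strongest summit lay in the GENCODE body of a member gene or within 50 kb of it. This gave 108 of 160327 regions in the list, or 0.0674%, around 7 genes at 6 loci.

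Proteins of the p53 family bind DNA as tetramers and switch on genes that stop the cell cycle or start apoptosis. TP63 and TP73 each have an outer start, which gives TA forms with a transactivation domain, and an inner start, which gives ΔN forms without it that can block the TA forms. MDM2 is a ubiquitin ligase that marks p53 for degradation and is itself a p53 target. MDM4 covers the transactivation domain of p53 and pairs with MDM2. CDKN1A encodes p21, an inhibitor of cyclin-dependent kinases. CDKN2A makes p16INK4a, an inhibitor of CDK4 and CDK6, from one start, and ARF, an inhibitor of MDM2, from another. CDKN2B encodes p15INK4b, a close relative of p16INK4a. Pluripotent stem cells are known to have a short G1 phase and low INK4 levels.

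The sequence just upstream of the member starts is shown because the results turn on which of these starts are open. The lines give the 100 bases before the outermost position of each coding start that had a region within 1000 bp, 5′ to 3′ on the gene's strand, in GRCh38. Capitals mark matches on either strand to a CCAAT box (CCAAT), a GC box (GGGCGG) or an ETS string (CCGGAAG). In MDM2 the CCAAT matches on both strands overlap, and in CDKN1A the last 2 GC boxes overlap.
TP63 outer start, chr3:189631289-189631388: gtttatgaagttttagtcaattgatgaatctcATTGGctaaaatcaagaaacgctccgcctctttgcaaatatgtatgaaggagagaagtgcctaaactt
TP63 inner start, chr3:189789559-189789658: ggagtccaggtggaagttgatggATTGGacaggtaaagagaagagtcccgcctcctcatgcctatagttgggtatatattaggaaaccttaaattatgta
TP73 outer start, chr1:3652416-3652515: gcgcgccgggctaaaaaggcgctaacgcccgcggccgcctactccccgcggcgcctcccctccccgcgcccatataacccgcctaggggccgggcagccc
MDM2 first start, chr12:68808077-68808176: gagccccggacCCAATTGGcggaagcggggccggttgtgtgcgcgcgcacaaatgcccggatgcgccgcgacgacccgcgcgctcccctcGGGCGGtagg
MDM2 second start, chr12:68808902-68809001: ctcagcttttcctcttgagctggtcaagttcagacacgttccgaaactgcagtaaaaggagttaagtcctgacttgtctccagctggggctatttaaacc
MDM4, chr1:204516279-204516378: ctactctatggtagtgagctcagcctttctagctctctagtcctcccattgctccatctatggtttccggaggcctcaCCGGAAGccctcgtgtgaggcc
CDKN1A canonical start, chr6:36678610-36678709: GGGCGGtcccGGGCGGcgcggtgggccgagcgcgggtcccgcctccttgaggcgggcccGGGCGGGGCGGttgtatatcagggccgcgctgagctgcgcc
CDKN2A ARF start, chr9:21995302-21995401, minus strand: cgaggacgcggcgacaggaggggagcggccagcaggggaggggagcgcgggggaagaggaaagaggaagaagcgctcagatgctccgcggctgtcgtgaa
CDKN2A p16INK4a start, chr9:21974867-21974966, minus strand: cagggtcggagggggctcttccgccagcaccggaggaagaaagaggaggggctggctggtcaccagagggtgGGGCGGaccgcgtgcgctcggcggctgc
CDKN2B, chr9:22009306-22009405, minus strand: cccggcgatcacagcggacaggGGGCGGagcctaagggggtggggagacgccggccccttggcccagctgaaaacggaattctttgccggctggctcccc

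The p63 starts were AT-rich and most others GC-rich. The windows of TP63 had a G+C content of 36% at the outer start and 43% at the inner one, and held 2 and 1 CpG. Each had 1 CCAAT box, which 19.8% of all protein-coding genes have in the 100 bases before their outermost start. The windows of CDKN1A and TP73 had 81% and 77% G+C with 16 and 15 CpG. CDKN1A held 4 GC boxes, a string found before 37.6% of genes, and MDM4 held 1 ETS string, found before 6.15%. All 100 bases lay inside an accessible region for MDM2, MDM4, CDKN1A, CDKN2A and CDKN2B, and 0 did for TP63 and TP73.

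The strength of a region is its fold, the authors' own enrichment value for the summit, whose background is not specified. The 108 regions had a median fold of 4.72 (10th to 90th percentile 2.89 to 10.3), against 5.38 (3.20 to 11.9) in the whole list. Of them, 45 lay above the list's median, 6 above its 90th percentile and 21 below its 10th. Their median width was 444.5 bp, against 447 bp in the list, and 35 (32.4%) had more than 1 summit, against 30.7% of all regions. All 7 genes had at least 1 region in their window, as did 97.7% of protein-coding genes. Introns held 60 of the 108 summits and intergenic sequence 20. Promoters of protein-coding genes within 1000 bp of the outermost start held 13, and 5 lay at the starts of other gene types. As only outermost starts count here, the region at the p16INK4a start of CDKN2A is among the introns. The one at the canonical start of CDKN1A is among the starts of other gene types. UTRs held 7 and other exons 3. At the edge of the 50 kb window, the last regions kept lay 37861 to 49416 bp from their gene, with folds of 2.83 to 5.72. The first ones left out lay 51367 to 67058 bp away, with folds of 3.41 to 12.1.

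The promoters of TP63 and TP73 were the weakest of the 7. Taking the strongest region within 1000 bp of any annotated start, TP63 had a fold of 3.49 and TP73 3.02. MDM4 had 13.0, MDM2 10.6, CDKN2A 10.4, CDKN1A 10.3 and CDKN2B 8.90. Thus 5 genes lay at 8.90 or above, over the median of 8.48 for all protein-coding genes. The p53 relatives lay below the lower quartile of 4.26 for the same genes. Both reference values include genes without a region. All 7 had a region at some start, as did 80.5% of protein-coding genes. At the canonical start 6 of 7 had one (75.6% of all genes) and at the outermost start 5 of 7 (71.4%).

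**Figure D1:**
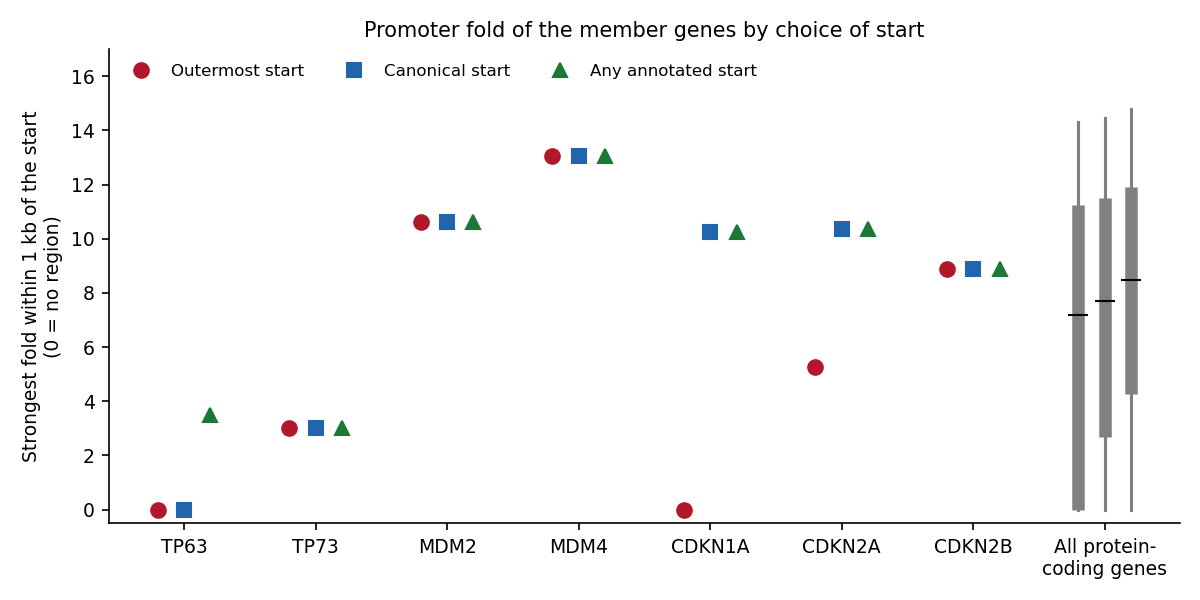
Strongest fold within 1000 bp of the outermost (circles), canonical (squares) and any annotated start (triangles) for each member gene, with 0 for no region. Grey bars give the 10th to 90th percentile (thin), the quartiles (thick) and the median (tick) of all protein-coding genes for the same starts in the same order. TP63 and TP73 sit at 3.49 or below for every start, and CDKN1A is at 0 for the outermost start and at 10.3 for the canonical one.

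TP63 (ENSG00000073282, chromosome 3, 189631389 to 189897276, plus strand) is a master regulator of stratified epithelium, and its ΔN form marks basal epidermal cells. Its outer and inner starts, 158270 bp apart, were alike in having little accessibility. No annotated start position of either group lay inside a region. The nearest summit was 925 bp downstream of the last outer start position, in a region of fold 2.74 (189632338 to 189632528), at percentile 2.54 of the list. For the inner start, the nearest summit was 874 bp downstream of the last start position, with a fold of 3.49 (189790580 to 189790996). Measured from the outermost position of each group, the summits lay at 1052 and 1016 bp. Among protein-coding genes, 54.6% of all coding starts, grouped when within 500 bp, had a summit within 1000 bp, and 36.1% of those other than the first. The ratio of observed to expected CpG around the outer start was 0.365, in decile 3 of all genes, where 36.2% of genes had a region at the outermost start.

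The body of TP63 was dense in regions, most of them of modest fold, with a median of 4.72 against 5.38 in the list. Its window had 37 regions: 32 in the gene, all of them intronic, 1 upstream and 4 downstream. That is 10.1 per 100 kb, at the 83.8th percentile of protein-coding genes, where the median was 6.54. Inside the gene alone there were 12.0 per 100 kb, against a median of 6.18 (10th to 90th percentile 2.90 to 9.73) over 991 protein-coding genes of 200 to 400 kb. The density was close to equal on the 2 sides of the inner start. The stretch from the outer to the inner start had 19 regions, or 12.0 per 100 kb, with a median fold of 5.11 and 9 of them above the list's median. The stretch from the inner start to the gene's end had 13, or 12.1 per 100 kb, with a median of 4.53 and 5 of them above it.

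The strongest TP63 regions lay away from its starts. The strongest (189652080 to 189652367) reached 12.8, 20842 bp downstream of the outer start, at percentile 92.3 of the list. The next, of fold 12.2 (189776257 to 189776849), lay 145249 bp downstream, which is ahead of the inner start. One of fold 12.0 (189806027 to 189806927) lay 174951 bp downstream, past the inner start. Regions of fold 11.7 and 10.9 followed at 79393 and 4205 bp. The weakest regions of the gene had folds of 2.70 and 2.74, and 15 of the 37 lay above the list's median. The longest stretch with no summit was 32.1 kb, across the gene's end. Sequence is shown for the summits of the regions of fold 12.8 and 12.0, with 50 bp on each side, as these had the highest fold on each side of the inner start. The capitals mark an E box (CACGTG), which 1.47% of all regions hold within 50 bp of the summit.
TP63 +20842, chr3:189652181-189652281: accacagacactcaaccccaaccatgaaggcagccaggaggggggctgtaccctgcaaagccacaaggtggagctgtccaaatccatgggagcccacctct
TP63 +174951, chr3:189806290-189806390: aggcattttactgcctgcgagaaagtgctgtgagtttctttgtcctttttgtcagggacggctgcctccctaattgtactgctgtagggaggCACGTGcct

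TP73 (ENSG00000078900, chromosome 1, 3652516 to 3736201, plus strand) has roles in neural development and in cells with many cilia. Around its outer start the chromatin was open in 3 separate regions, none of which held a start position. The strongest, of fold 8.77, had its summit 2387 bp upstream (3649709 to 3650323), in an intron of the neighbour WRAP73. One of fold 3.02 lay 935 bp upstream (3651441 to 3651805), and one of fold 2.91 lay 325 bp downstream (3652694 to 3652927) and covers the start of WRAP73, a gene on the opposite strand. The start itself fell in the gap between the last 2. Its observed to expected CpG ratio was 0.873, in decile 9, where 96.7% of genes had a region within 1000 bp.

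No other TP73 start group had a region with its strongest summit within 1000 bp. The inner start used for ΔN forms, at 3690672, had its nearest summit at −2085 bp, of fold 2.93. An annotated start at 3682366 had one 1872 bp downstream, of fold 4.38, and the starts at 3698046 to 3698058 had one at −2229 bp, of fold 7.81. The start of a noncoding transcript at 3727478 had one at −2922 bp, of fold 4.75. Between the outer and the ΔN start lay 6 regions, with folds of 2.67 to 4.66 and 0 of them above the list's median. From the ΔN start to the gene's end there were also 6, with folds of 2.71 to 7.81 and 3 above it. The summits in the TP73 window were GC-rich, with a median G+C of 68.3% within 50 bp, against 47.5% at TP63 and 51.5% in the list.

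The TP73 window was dense, with 21 regions or 11.4 per 100 kb, at the 90.3rd percentile, but its 4 regions of highest fold lay at other genes' starts. A fold of 13.7 lay at TPRG1L, 12.6 at TP73-AS1 and CCDC27, 9.44 at MEGF6 and 8.89 at SMIM1. Of the 21 regions, 2 had TP73 as their nearest protein-coding start. This count is low in part because WRAP73 starts at 3652761, just inside TP73, and so lies nearer to regions in the 5′ part of the gene. The summit at 3674953, for example, lay 22192 bp from the WRAP73 start and 22437 bp from that of TP73. At TP63 the count of regions nearest to its own start was 33 of 37.

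**Figure D2:**
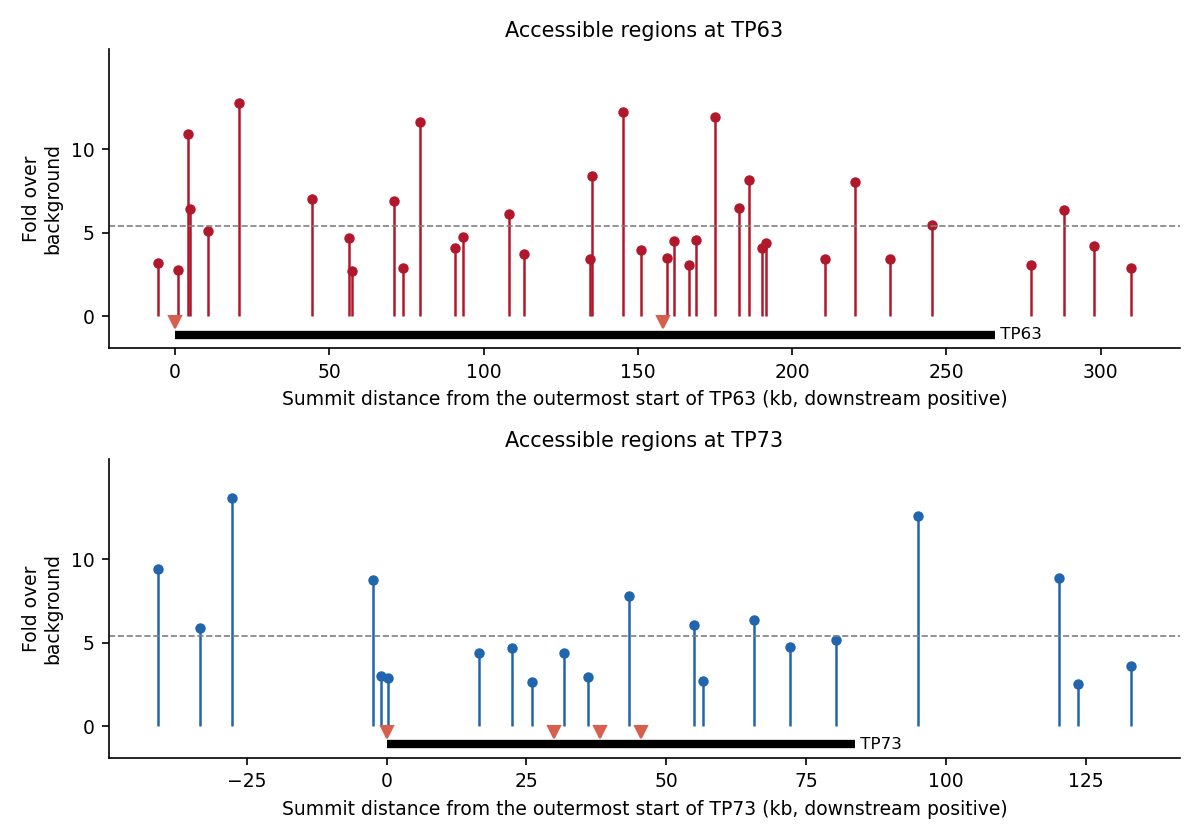
Fold of each region (stems) by the distance of its summit from the outermost start of TP63 (top) and TP73 (bottom), in kb. Black bars are the gene bodies, triangles the coding starts, and the dashed line the list's median fold of 5.38. At TP63 the 4 tallest stems lie inside the gene and at none of the triangles, while at TP73 the tallest lie outside the gene.

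MDM2 (ENSG00000135679, chromosome 12, 68808177 to 68845544, plus strand) has a first promoter that works without p53 and a second one, in the first intron, through which p53 raises its level. A single wide region covered the first promoter and reached into the second. It had a fold of 10.6 and ran from 68807818 to 68809098, or 1281 bp, with its strongest summit 143 bp upstream of the first start. Weaker summits lay 314 and 521 bp downstream, of fold 3.71 and 5.86, on the side of the second promoter. All 6 positions of the first start group lay inside the region and 3 of the 6 of the second. A separate region of fold 3.12 had its summit 535 bp upstream.

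The MDM2 window was moderately dense, with 10 regions or 7.28 per 100 kb (58.5th percentile). An intronic region 22212 bp downstream of the first start had a fold of 10.6 (68830255 to 68830512). Its −log10 p was 77.9, against 240.4 at the promoter. Another of fold 9.46 lay 15018 bp upstream, in an exon of SLC35E3, and one of 8.47 lay in an intron of CPM.

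MDM4 (ENSG00000198625, chromosome 1, 204516379 to 204558120, plus strand) had the strongest promoter of the 7 and no summit in its gene body. The promoter region had a fold of 13.0 (204515977 to 204516923), at the 92.9th percentile of the list, with the summit 26 bp upstream of the outermost start and all 5 start positions inside. None of the 15 regions of its window had a summit within the 41.7 kb of the gene. The next one downstream lay 44500 bp from the start, with a fold of 2.57. The other coding starts of MDM4, at 204525490, 204537857 and 204542789, therefore had no region within 1000 bp. On both flanks the window was well populated: 6 summits lay upstream and 9 downstream of the gene, giving 10.6 per 100 kb (86.4th percentile). The upstream ones include those of the promoters of MDM4 itself and of its neighbour PIK3C2B, and 2 in introns of PIK3C2B. The region at the PIK3C2B promoter had a fold of 9.38 (204494082 to 204495342). Of the downstream ones, the strongest had folds of 7.11 and 6.61, and a pair upstream, 9786 and 8522 bp from the start, had 6.78 and 6.13.

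CDKN1A (ENSG00000124762, chromosome 6, 36676460 to 36687337, plus strand) was open at its canonical start and not at its outermost one. The region at the canonical start was the widest of the 108, at 1472 bp (36678302 to 36679773), with a fold of 10.3. It had 4 summits, at −333, −24, 607 and 973 bp from that start, with folds of 2.68, 10.3, 2.16 and 2.80. The highest lay closest to the start. DINOL, a long noncoding RNA on the opposite strand that p53 induces after DNA damage, starts 131 bp from this summit, so the region holds starts of both genes. The outermost start, 2250 bp upstream of the canonical group, lay in no region. The strongest summit of the nearest region was 2162 bp downstream of the last position of that start group, and the CpG ratio of 0.0873 at the outermost start was in decile 1, where 15.6% of genes had a region.

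The CDKN1A window held 7 regions, or 6.31 per 100 kb, close to the median gene (47.3rd percentile). Intergenic regions lay at −17820 and −11395 bp from the canonical start, with folds of 9.26 and 4.32. Downstream, introns of RAB44 held folds of 7.52, 5.43 and 4.19, and the last region had 2.83.

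CDKN2A (ENSG00000147889, chromosome 9, 21967752 to 21995301) and CDKN2B (ENSG00000147883, chromosome 9, 22002903 to 22009305) lie next to each other on the minus strand, and 16 of their regions fall in both windows. All 3 main promoters were open. The p16INK4a start of CDKN2A had a fold of 10.4 (21974479 to 21975371, 1 summit, 73 bp upstream of the outermost position of that start group), with 4 of 4 start positions inside. The ARF start had 5.26 (21995016 to 21996259, 4 summits, the strongest 123 bp upstream) and a further region of 2.44 inside the gene, with 3 of 5 positions inside a region. CDKN2B had 8.90 (22008651 to 22009750, 4 summits, the strongest 94 bp upstream), with 2 of 2 positions inside. A further group of coding starts of CDKN2A, at 21971332 to 21971400, had no region within 1000 bp, and its nearest summit was 1606 bp downstream, of fold 4.52. A region at 21996537 to 21997212, of fold 5.06, lay 1364 bp upstream of the ARF start in an intron of CDKN2B-AS1, the antisense transcript also called ANRIL. CDKN2B-AS1 starts 677 bp from the summit of the region of fold 2.44. The region of 5.26 also holds the start of a long noncoding RNA, ENSG00000266446, 58 bp from its strongest summit. These 2 regions are thus not particular to the ARF start. Accessibility is not transcription, and no RNA was measured here.

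The 2 genes had the highest density of the 7, with 18 regions or 14.1 per 100 kb at CDKN2A (97.0th percentile) and 16 or 15.0 per 100 kb at CDKN2B (98.1st percentile). Of the 18 distinct regions, 14 lay within 46.3 kb, from 21964897 to 22011211. Besides those at the promoters, summits in UTRs of CDKN2B had folds of 4.69 and 3.18, and one 1805 bp upstream of its start had 3.20. CDKN2A held one of 4.52 in a UTR and ones of 4.04 and 2.29 in introns. Past the end of CDKN2A lay folds of 6.03, 3.15 and 2.53. Farther on, outside the 46.3 kb stretch, summits in UTRs of MTAP had folds of 8.48 (21933051 to 21933627) and 3.51. The distance between neighbouring summits had a median of 2.37 kb in the CDKN2A window, against 7.19 kb at TP63 and 8.90 kb at CDKN1A.

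**Figure D3:**
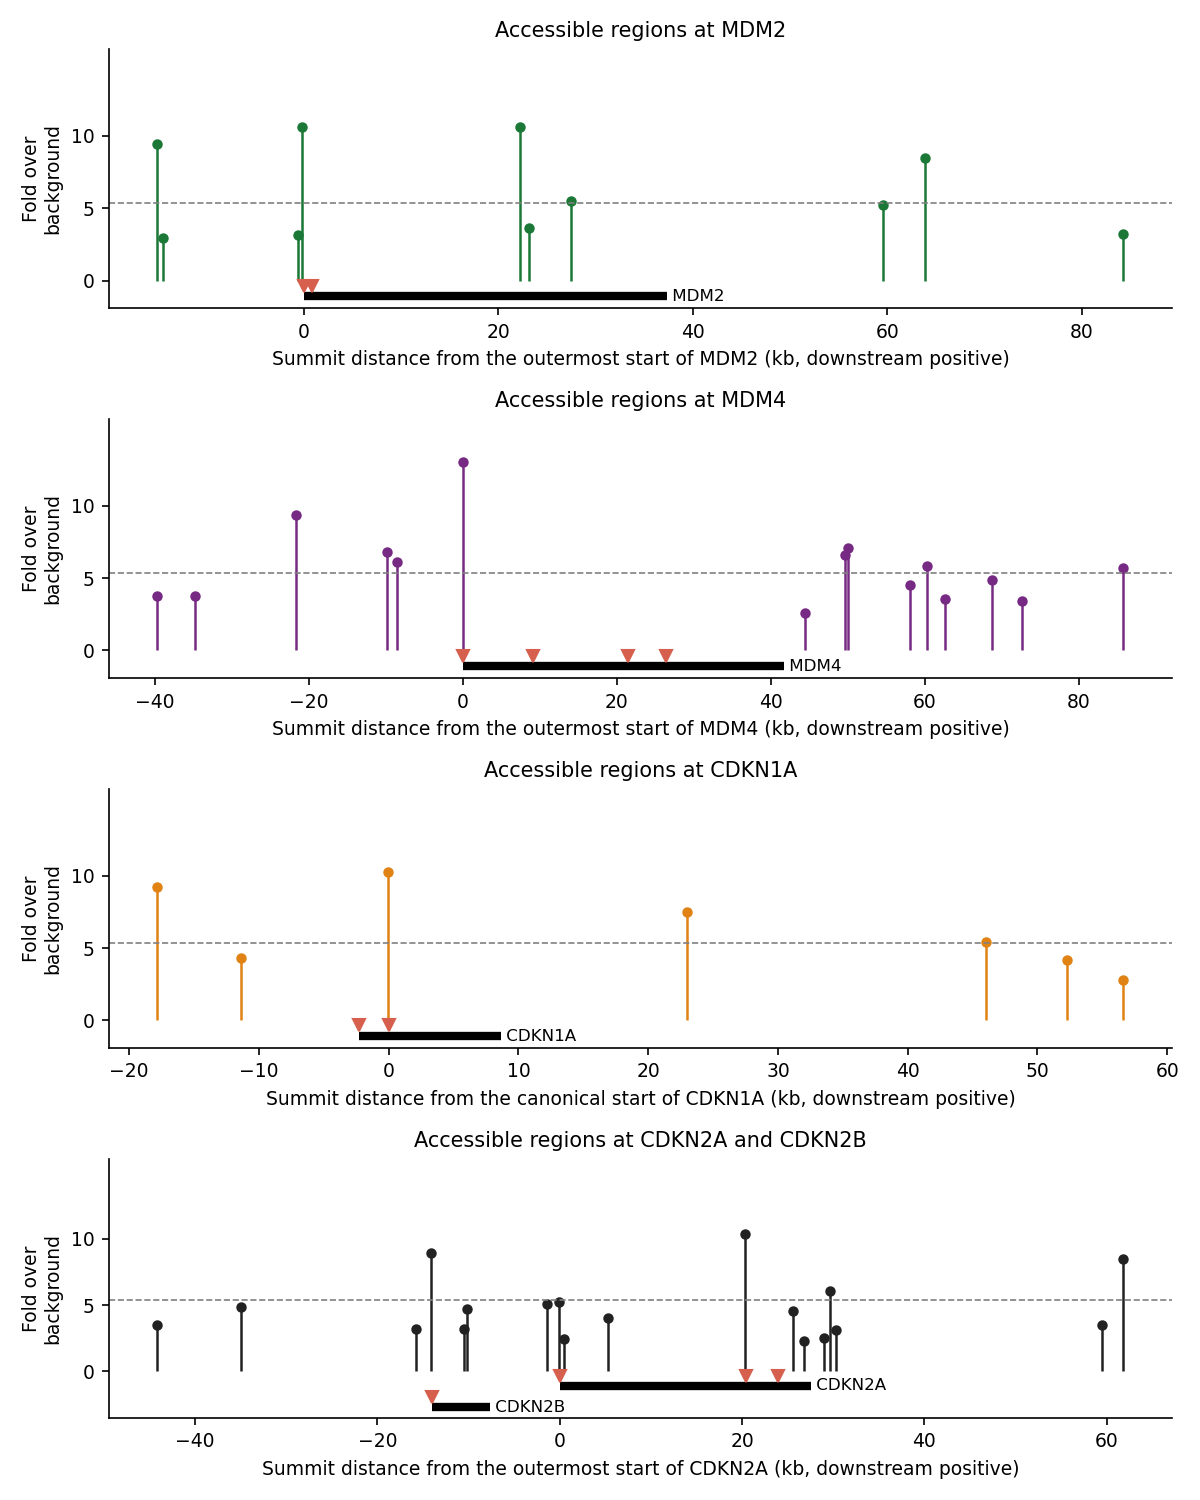
Fold of each region by the distance of its summit from the start named on each axis, for MDM2, MDM4, CDKN1A, and CDKN2A with CDKN2B, drawn as in the maps of TP63 and TP73 (bars, gene bodies; triangles, coding starts; dashed line, list median of 5.38). MDM4 has 0 stems over its gene body, and the stems of CDKN2A and CDKN2B crowd together at folds of 2.29 to 10.4.

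**Figure D4:**
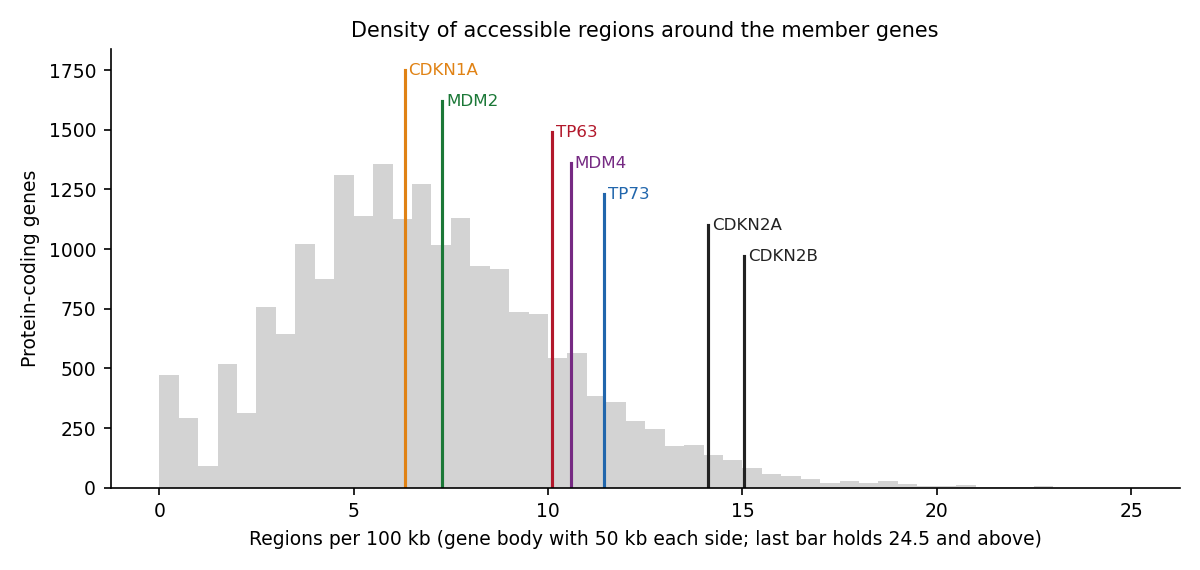
Regions per 100 kb in the gene body with 50 kb on each side, for the 7 member genes (coloured lines) and all protein-coding genes (grey bars, number of genes). CDKN1A and MDM2 lie in the middle of the distribution, at 6.31 and 7.28, and CDKN2A and CDKN2B in its upper tail, at 14.1 and 15.0.

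The caller's −log10 p at a given fold was high at CDKN2A and CDKN2B. For each region it was divided by the median −log10 p of all regions of the list whose fold was within 5% of its own. This ratio had a median of 1.98 over the 18 regions, with 16 above 1. It was 2.38 over the 14 regions in and between the genes or within 5 kb of them (0.935 to 3.62), and 1.06 over the other 4 (0.938 to 1.14). The ARF promoter had the highest ratio, 3.62, and the CDKN2B promoter had 3.13. Medians at the other loci were 1.46 at MDM4, 1.30 at TP73, 1.02 at TP63, 0.991 at MDM2 and 0.941 at CDKN1A. At MDM2 the wide promoter region had 2.55, and the separate region 535 bp upstream of the first start had 2.73. The stretch was chosen after its values were seen. What sets this ratio was not tested.

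**Figure D5:**
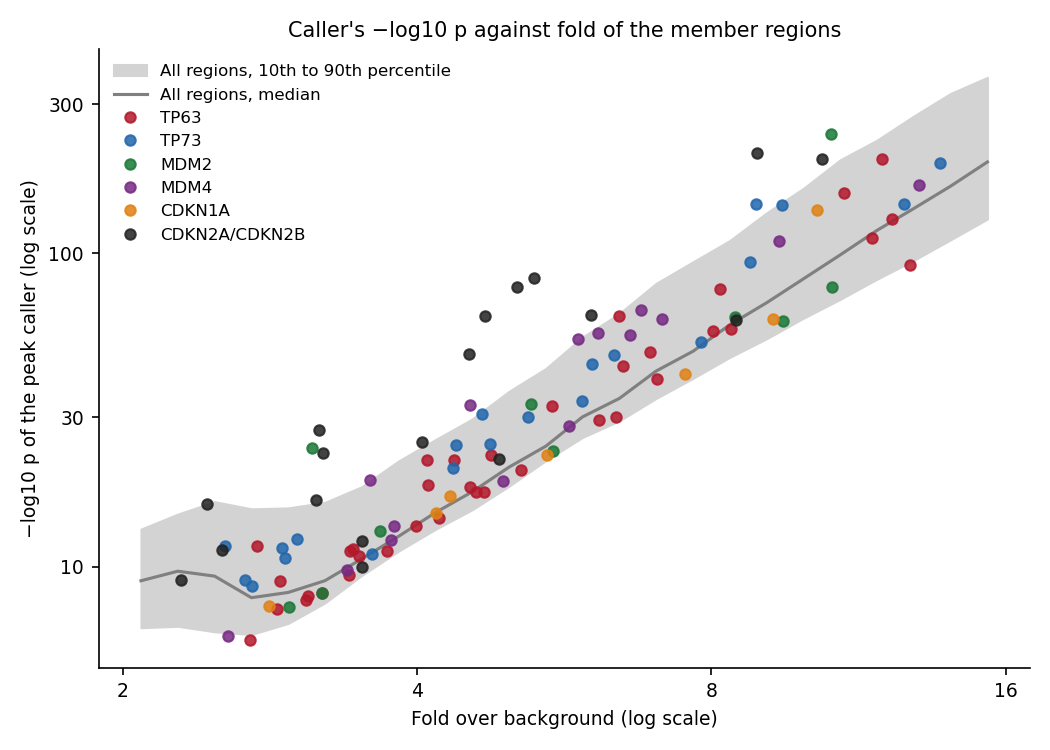
The peak caller's −log10 p against fold for the 108 regions, coloured by locus, on log axes; the grey band and line give the 10th to 90th percentile and the median of all regions in steps of fold. Of the 18 CDKN2A and CDKN2B points (black), 16 have a higher −log10 p than the median of regions of like fold, as do 19 of the 37 TP63 points.

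The response element bound by p53, p63 and p73 was searched for as its consensus of a pair of adjacent decamers, with the C and G of both cores kept and mismatches counted elsewhere. Few regions held one. With at most 1 mismatch it was present in 1 of the 108 regions (0.926%, exact binomial interval 0.0234% to 5.05%) and in 0.106% of all regions. With at most 2 it was present in 3 (2.78%, 0.577% to 7.90%) and in 0.532% of all. The windows of the 7 genes held 16 such sites with at most 2 mismatches, of which 3 lay in a region. The sites shown are the 3 inside regions and, outside them, the only other one with 1 mismatch and those nearest to a start of TP73, MDM4 and CDKN1A; capitals mark the cores.
MDM2 +755, in the promoter region, chr12:68808923-68808942: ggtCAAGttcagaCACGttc
CDKN1A −11447 from the canonical start, in a region, chr6:36667258-36667277: agaCAAGcccgggCAAGgcc
TP73 −40515, in the region at MEGF6, chr1:3611992-3612011: aagCCAGcctcggCTTGtcc
TP73 +12683, outside regions, chr1:3665190-3665209: aggCATGctccaaCTTGctt
TP73 +38089, outside regions, chr1:3690596-3690615: gggCAAGctgaggCCTGccc
MDM4 +8676, outside regions, chr1:204525046-204525065: agaCATGttccaaCATGttg
CDKN1A −2256 from the canonical start, outside regions, chr6:36676449-36676468: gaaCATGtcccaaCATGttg

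The MDM2 site lay in the wide promoter region, just upstream of the second start, 898 bp from its strongest summit. The CDKN1A site at −2256 has the position of the well known distal p53 element of that gene. It lay outside every region, 2232 bp from the strongest summit of the nearest one, while the site at −11447 lay 52 bp from the summit of a region of fold 4.32. The TP73 site at 38089 bp lay just upstream of the ΔN start and 2018 bp from the nearest summit. At MDM4 the site in the gene, close to the start at 204525490, was 8702 bp from the nearest summit. TP63 held 3 sites with 2 mismatches, none in a region. A match of letters is not evidence of binding, and a lack of one says nothing of the factor.

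Other short strings within 50 bp of the summit were found in the 108 regions at shares whose intervals held the share of the whole list in each case named here. The CCAAT box was in 17.6% (10.9% to 26.1%), against 13.6% of all regions. The GC box was in 11.1% (5.87% to 18.6%) against 10.3%, and the AP-1 string TGANTCA in 7.41% (3.25% to 14.1%) against 4.5%. The ETS string was in 3.70% (1.02% to 9.21%) against 1.31%. The CREB string TGACGTC was in 0 of 108, with an upper bound of 3.36%, against 0.501%. The TEAD string GGAATG was in 7.41% against 11.0% and the octamer string ATGCAAA in 3.70% (1.02% to 9.21%) against 4.64%. Neighbouring regions share sequence composition, so these intervals cover counting error only.

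The promoters of the wider pathway were described over lists drawn from general knowledge. Of 30 p53 target genes, 27 (90%, interval 73.5% to 97.9%) had a region within 1000 bp of the outermost start, against 71.4% of all protein-coding genes. At the canonical start 30 of 30 had one (interval 88.4% to 100%), against 75.6% of all genes. The median CpG ratio at the outermost start was 0.757 in this list, against 0.688 over all protein-coding genes. In decile 7 of that ratio, with a median of 0.770, 95.6% of genes had a region at that start. The part of CpG content in the shares of these lists was not tested. The median fold was 10.1 at either start. Over all protein-coding genes the median was 7.18 at the outermost start and 7.70 at the canonical one. These medians include genes without a region, ranked lowest, so they mix presence with strength. Over the protein-coding genes with a region at the outermost start the median was 9.49. SPATA18, which acts in the removal of damaged mitochondria, had 17.7, ZMAT3 15.4 and XPC, a DNA damage sensor, 15.3. BBC3 and FAS, which promote cell death, and TP53I11 had no region at the outermost start. At the canonical start they had 2.66, 6.36 and 5.23.

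Of 26 genes that control p53 activity, 23 (88.5%, interval 69.8% to 97.6%) had a region at the outermost start, an interval that holds the 71.4% of all protein-coding genes. Their median fold was 10.9, against 7.18 over all genes, both with genes lacking a region included. Over all genes with a region at that start it was 9.49. Their median CpG ratio was 0.800, and in decile 8, with a median of 0.819, 96.2% of genes had a region. RCHY1, a ubiquitin ligase for p53, had 14.8, the damage kinase ATR 14.1 and the mitotic kinase AURKA 13.4. CHEK1 had none at the outermost or canonical start and 9.40 at another. USP7, which removes ubiquitin from p53 and MDM2, had 5.41 at its canonical start, and EP300 had none at any start. The list of CDK inhibitors and their pathway also holds CDKs, cyclins, RB1 and its relatives, E2F genes and BMI1. All 20 of its genes had a region at the outermost start (interval 83.2% to 100%), against 71.4% of all genes. Their median fold was 9.43, against 9.49 over all genes with a region there. At the canonical start their median was 7.75, against 7.70 over all genes, those without a region included. The median CpG ratio of this list was 0.830. CDKN3 had 16.1, CDKN2C, which encodes a further INK4 protein, had 13.0 (3.64 at the canonical start), and RBL1, a relative of RB1, had 12.2.

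Genes that p63 controls in epithelium had a lower median fold than these lists, 5.20 at the outermost start. This was below the median of 7.18 for all genes, and both medians include genes without a region. A region was present in 20 of 24 (83.3%, interval 62.6% to 95.3%), near the 71.4% of all genes, which lies inside this interval. LAMB3 had 13.2 and DST 10.2, while KRT14 had none at any start, COL17A1 had 5.74 at a start other than the outermost and canonical, and KLF5 had 13.0 at the canonical start. As a check of the cell label, 8 of 8 pluripotency markers had a promoter region at the outermost start, against 2 of 6 for basal epidermis, 4 of 6 for fibroblasts (folds of 4.24 to 8.26) and 0 of 6 for blood. The share over all genes was 71.4%, inside the interval for pluripotency (63.1% to 100%) and above that for blood (0% to 45.9%). The lists differed in median CpG ratio: 0.676 for pluripotency, 0.265 for basal epidermis, 0.292 for fibroblasts and 0.216 for blood. In decile 3, with a median of 0.329, 36.2% of genes had a region at that start, and in decile 5, with a median of 0.650, 89.9%. The part of CpG content in these counts was not tested, so they do not settle the cell label. KRT5 and KRT14, which define basal epidermis, were at 0, and LAMB3 and ITGB4 had 13.2 and 9.46. The part of other cell types in the member regions was not tested. Of the pluripotency markers, TERF1 had 17.5, ZFP42 11.2 and L1TD1 8.72.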

How the data were processed

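Both samples of H1 cells are represented by 1 deposited peak list. Per the labels it is an optimal overlap set, and per the submitters' processing notes the build is GRCh38. What was overlapped, and which aligner, peak caller and filters were used, was not given in the sources used here. Fold (a ratio over background), −log10 p and score are the authors' deposited values per summit. Fold and −log10 p were used for description and ranking inside this list alone, and the score was not used. Depth per sample was not analysed here.

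Summits that share the same bounds were merged to 1 region, placed by the summit of highest fold (236878 rows, 160327 regions). GENCODE release 44 gave genes and starts, and 0 rows ran past a chromosome end. Starts of a gene within 500 bp were grouped. Percentiles are ranks among all 20033 protein-coding genes or all regions. Intervals are 95% exact binomial (Clopper-Pearson) and cover counting error only. With 1 list and 1 group, no test over samples was possible. The scripts, run in Python 3.11.15 with pandas 2.3.3 and scipy 1.17.1, were tested on simulated lists and planted sites.

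Alternatives were other flanks, promoter windows and starts, every summit counted, a stricter list, assignment by nearest start, and other numbers of mismatches.

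The members and gene lists were chosen with earlier results of these data known. Named were all members, the regions at their starts, the 3 strongest regions per gene, sites of the p53 type, and from each list the 3 highest promoter folds and the first 3 genes in alphabetical order without a region. Of the genes under this rule, 1 is not reported here. The search for p53-type sites outside regions was added after seeing the data.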

Additional observations from a re-analysis of the deposited data

How the results depend on the processing

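No paired analysis was possible because both samples share 1 group and 1 list, and for the same reason no replicate could be left out. Keeping only regions at or above the list's median −log10 p left 51 of the 108 regions. The single region with a p53-type site became 0 with no mismatch and 3 with 2 mismatches allowed. The other 20 alternatives for the region total, the number of genes with a promoter region, the list shares and the site count stayed within 1.5 times the value reported. For single genes, 56 of 84 alternatives did so and 28 did not. Among these, the promoter fold of CDKN1A was 0 at the outermost and 10.3 at the canonical start, and that of CDKN2A 5.26 and 10.4. TP73 had a promoter fold of 0 with the stricter list, and TP63 one of 2.74 with a 2000 bp window. Counting regions by the nearest protein-coding start left 2 of 21 at TP73, where the start of WRAP73 lies just inside the gene. A flank of 10 kb left 6 of 15 at MDM4, 5 of 10 at MDM2 and 2 of 7 at CDKN1A.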
